A study of Mus musculus with 6 samples.

Results

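The genes described here encode 10 negative regulators of T cell receptor signalling, taken from the deposited gene count table by their symbols: Cblb, Cbl, Itch, Rnf128, Dgka, Dgkz, Ptpn22, Ptpn6, Ubash3a and Ubash3b. All 10 were among the 54532 genes of the table, and all 10 had enough reads to be among the 14530 genes tested. The libraries came from CD4+ T cells of C57BL/6 mouse spleens. There were 3 cultures with idelalisib and 3 control cultures without it, all kept in Th1 condition (T helper 1) and harvested at 72 h. Idelalisib inhibits the delta isoform of phosphoinositide 3-kinase (PI3K), and the study asked how it acts on T cell activation, proliferation, differentiation and survival. The titles call the replicates biological. The drug dose, any solvent in the control cultures and whether the replicates came from separate mice do not appear in the sources used here, so p-values reflect how far these cultures vary among themselves, and that variation may be technical.

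When the T cell receptor is engaged, the kinases Lck and Zap70 phosphorylate receptor chains and adaptors, and phospholipase C then releases diacylglycerol, which switches on the Ras activator encoded by Rasgrp1. The negative regulators act at successive points of this cascade. The ubiquitin ligases Cbl-b (Cblb), c-Cbl (Cbl), Itch and GRAIL (Rnf128) mark signalling proteins for degradation or relocation, the diacylglycerol kinases alpha and zeta (Dgka, Dgkz) convert diacylglycerol to phosphatidic acid, and the tyrosine phosphatases of Ptpn22 and Ptpn6 (SHP-1) remove activating phosphates. Ubash3a and Ubash3b encode the STS proteins, which bind ubiquitin, and the Ubash3b product dephosphorylates Zap70. In mice, loss of Cbl-b lets T cells respond without costimulation.

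The libraries held 14335571, 13372318 and 16035945 counts with idelalisib, against 16770452, 16014484 and 14879325 in control. Values are CPM, read counts per gene divided by sequencing depth, scaled with the trimmed mean of M-values (TMM) method. Of all genes tested, 3223 (22.2%) were higher and 3256 (22.4%) lower with idelalisib, 44.6% in either direction (edgeR quasi-likelihood test, adjusted p under 0.05). Scaled by library size alone, 68.5% of calls were higher in place of 49.7%, and the median over all genes shifted to 0.16 on the log2 scale in place of 0.01. Defining T cell markers were abundant: Cd4 averaged 473.9 CPM with idelalisib and 554.0 CPM in control, and Trac 231 CPM with idelalisib and 220.0 CPM in control. The 6 CD4+ T cell markers summed to 1719 to 2042 CPM with idelalisib and 1729 to 1888 CPM in control, with 2 higher. B cell markers were low but moved with the drug: their 8 genes summed to 15.1 to 18.2 CPM with idelalisib and 7.86 to 9.08 CPM in control, and 6 of the 7 tested were higher. The 7 myeloid markers summed to 9.63 to 14.1 CPM with idelalisib and 16.8 to 19.0 CPM in control, and Cd68, which made up most of the sum, was the 1 tested and was lower. The sums for CD8+ T cells were 7.24 to 9.50 CPM with idelalisib and 4.43 to 7.86 CPM in control, and those for erythroid cells and platelets 2.17 to 5.95 CPM with idelalisib and 0.813 to 1.78 CPM in control, with 1 of 2 tested markers higher in each. For dendritic cells they were 8.36 to 11.6 CPM with idelalisib and 11.4 to 12.7 CPM in control, and for NK cells 1.51 to 2.69 CPM with idelalisib and 1.81 to 3.10 CPM in control, with none called. Siglech and Ncr1 had no count in any library. What part such cells play in the values below was not tested. Along the second principal component (11.8% of the variance), idelalisib replicate 2 lay away from every other library.

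Of the regulators, 5 of 10 were lower and 0 of 10 higher, where 22.4% of all genes tested were lower and 22.2% higher. Taking both directions together, 5 of 10 was near the 44.6% of all genes. The median log2 fold change of the 10 genes was -0.19, against 0.01 for all genes tested. The 5 genes were Cblb, Ptpn22, Ubash3b, Dgka and Dgkz, and the same number was called without idelalisib replicate 2, with log2 fold changes of -1.94 for Cblb, -0.97 for Ptpn22, -0.78 for Ubash3b, -0.26 for Dgka and -0.18 for Dgkz. In 7 of the 10 the CPM values of the groups did not overlap, and 54.6% of all genes tested showed such a separation. In bulk RNA, fewer cells that express a gene and less RNA per cell cannot be told apart.

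**Figure D1:**
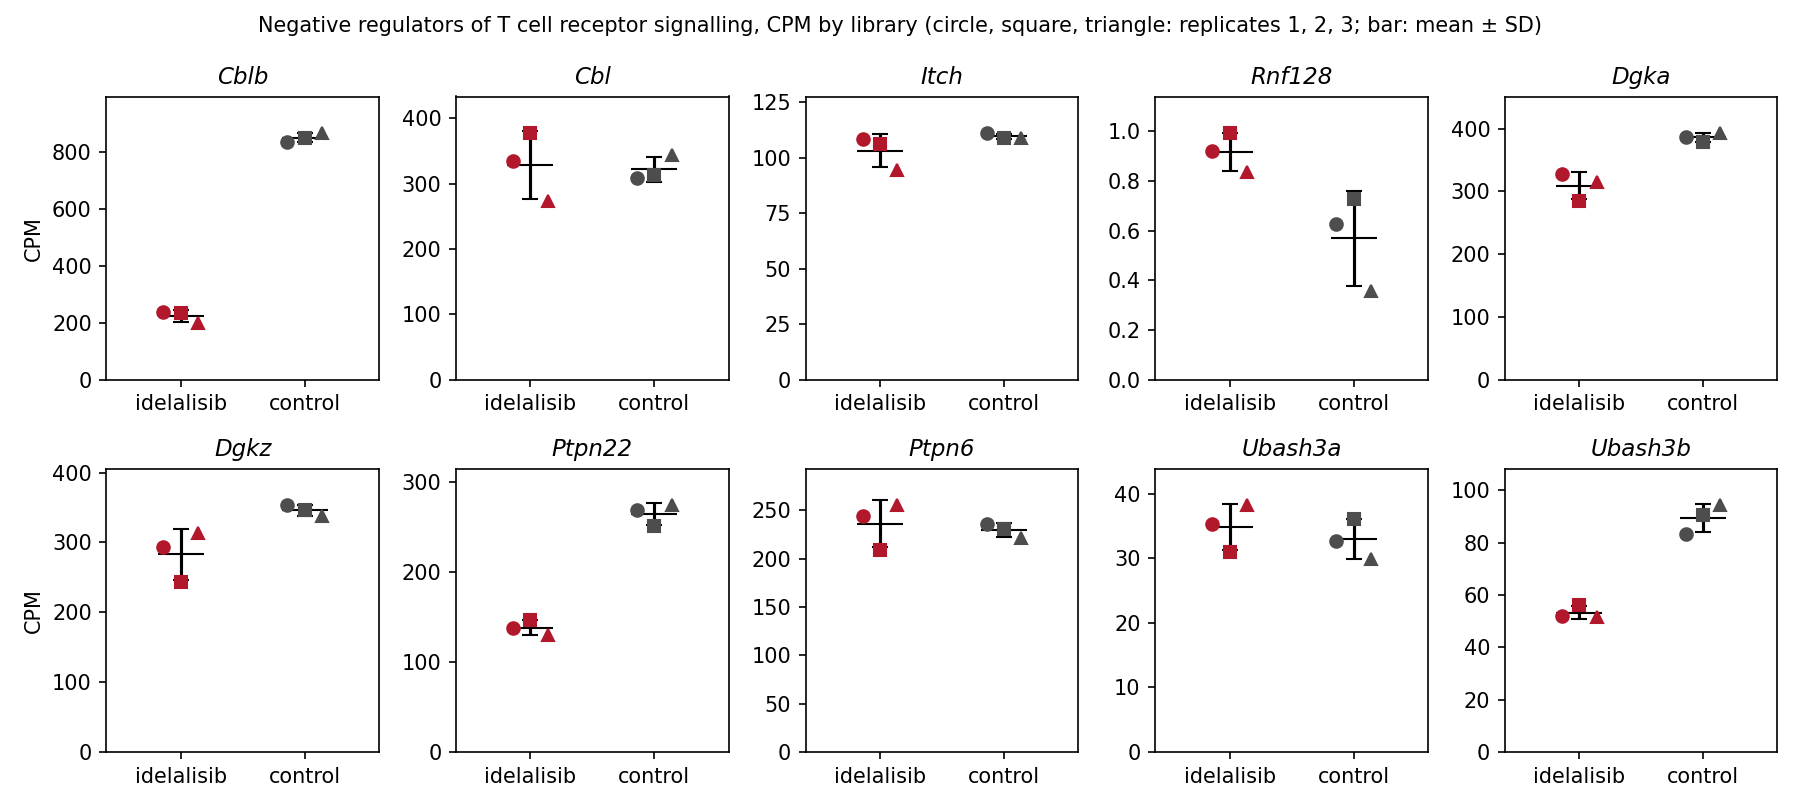
CPM of each regulator in every library, idelalisib left and control right, with the mean and SD of 3 libraries per group as bars and each vertical axis starting at 0. Cblb stands at 201 to 239.6 CPM with idelalisib and 835 to 865 CPM in control, while the values of Cbl, Ptpn6 and Ubash3a overlap between the groups.

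Among the ubiquitin ligases, Cblb (ENSMUSG00000022637, mm10 chromosome 16, 52031225 to 52208048, plus strand) fell 3.78-fold. It had 239.6, 234 and 201 CPM in the idelalisib libraries, against 835, 851 and 865 CPM in the control libraries. Every idelalisib library was below every control library, and the gap between the groups was far wider than the range within either. The log2 fold change was -1.92 (SE 0.09, 95% interval -2.10 to -1.74, edgeR adjusted p = 3.94e-09). By unadjusted p it ranked 7 among the 14530 genes. By size of the fall, 239 of all genes tested (1.64%), called or not, fell further than Cblb. Of the 230 genes that were at least as abundant as Cblb on average, 1 fell further, the long noncoding RNA Gm26917 at -2.33, which was looked up after its value was seen. Across 16 alternative settings the log2 fold change of Cblb lay between -1.95 and -1.76.

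Cbl (chromosome 9, 44142976 to 44234049, minus strand), the closest relative of Cblb, did not pass the test. Its values were 335, 376 and 273 CPM with idelalisib and 309, 313 and 344 CPM in control, so the idelalisib libraries spanned the whole control range. The log2 fold change of 0.03 had a 95% interval of -0.20 to 0.25 (edgeR adjusted p = 0.852) and over the alternatives it lay between -0.08 and 0.18 without being called.

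Itch (chromosome 2, 155133509 to 155226855, plus strand) encodes a ligase of the Nedd4 family that targets Jun proteins and phospholipase C. It had 109, 106 and 94.7 CPM with idelalisib and 111, 109 and 109 CPM in control. The groups did not overlap, but the difference was small, with a log2 fold change of -0.09 and a 95% interval of -0.26 to 0.09 (edgeR adjusted p = 0.409).

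Rnf128 (chromosome X, 139563316 to 139673145, plus strand) encodes GRAIL, a ligase known from unresponsive (anergic) T cells, and had few reads. The table listed 14 reads in each idelalisib library, against 10, 11 and 5 reads in the control libraries. That is 0.922, 0.991 and 0.836 CPM with idelalisib and 0.626, 0.727 and 0.357 CPM in control. The groups did not overlap, with the idelalisib libraries above the control libraries. The log2 fold change of 0.66 had a 95% interval of -0.27 to 1.59 (edgeR adjusted p = 0.230), which spans 0.831-fold to 3.02-fold, so a difference of that size was not detectable at this depth.

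The diacylglycerol kinases were both lower with idelalisib by a small margin. Dgka (chromosome 10, 128720134 to 128744855, minus strand) had 327, 285 and 315 CPM with idelalisib, against 387, 379 and 392 CPM in control. Its groups did not overlap, and its log2 fold change was -0.32 with SE 0.08 (adjusted p = 0.00447 by edgeR). Dgkz (chromosome 2, 91932824 to 91975864, minus strand) had 293, 243 and 313 CPM with idelalisib, against 353, 346 and 338 CPM in control. The groups were again apart, with idelalisib replicate 2 the lowest library, and the log2 fold change was -0.29 with SE 0.09 (adjusted p = 0.0206 by edgeR).

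Both calls held with relative log expression (RLE) and upper quartile scaling, but not with library size alone. Scaled by library size alone, Dgka was at -0.16 (edgeR adjusted p = 0.0962) and Dgkz at -0.13 (edgeR adjusted p = 0.241), and the 3 regulators then called were Cblb, Ptpn22 and Ubash3b. Without control replicate 1, 2 or 3, Dgkz kept a log2 fold change of -0.28, -0.29 and -0.31 but not the call (edgeR adjusted p = 0.0753, 0.0636 and 0.0513); without idelalisib replicate 2 its log2 fold change was closer to 0, at -0.18. An opposite-strand gene overlaps 2.2% of the exonic bases of Dgka (Pmel), 3.54% of those of Dgkz (Gm9821) and 6.96% of those of Ptpn6 (Gm20531), and reads there cannot be told apart without strand.

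The phosphatases differed. Ptpn22 (ENSMUSG00000027843, chromosome 3, 103859795 to 103912247, plus strand), whose product acts with the kinase Csk on Lck and Zap70, fell to 138, 146 and 129.7 CPM in the idelalisib libraries, against 269, 251 and 274 CPM in the control libraries. No idelalisib library came near the control range. The log2 fold change was -0.94 (SE 0.08, 95% interval -1.11 to -0.77, edgeR adjusted p = 9.26e-07), or 1.91-fold lower. Ptpn6 (chromosome 6, 124720707 to 124738714, minus strand), the gene of SHP-1, had 245, 209 and 255 CPM with idelalisib and 236, 231 and 221 CPM in control. Its groups overlapped, and its log2 fold change of 0.04 had a 95% interval of -0.14 to 0.23 (edgeR adjusted p = 0.706).

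The STS genes also parted. Ubash3b (ENSMUSG00000032020, chromosome 9, 41011098 to 41161697, minus strand) had 51.8, 56.0 and 51.6 CPM in the idelalisib libraries, against 83.5, 90.7 and 94.2 CPM in the control libraries. The groups lay well apart, and the gene fell by 0.75 on the log2 scale (SE 0.09, 95% interval -0.94 to -0.57, edgeR adjusted p = 1.19e-05). Ubash3a (chromosome 17, 31207873 to 31242202, plus strand) had 35.4, 31.01 and 38.2 CPM with idelalisib and 32.8, 36.2 and 30.0 CPM in control. These values overlapped, with a log2 fold change of 0.08 and a 95% interval of -0.15 to 0.32 (edgeR adjusted p = 0.575).

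**Figure D2:**
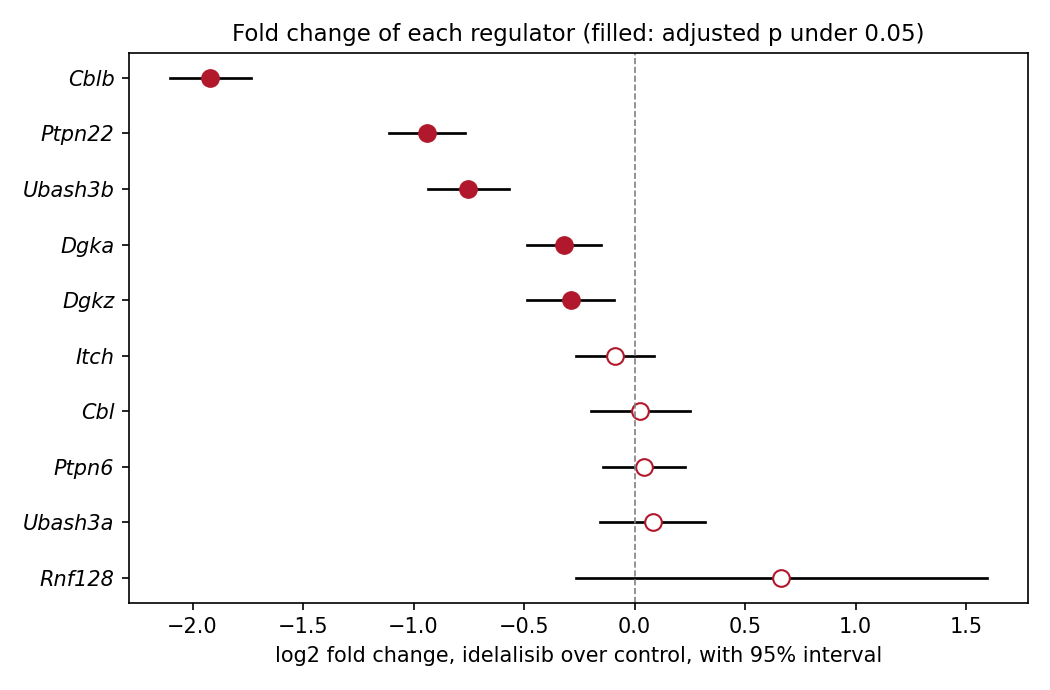
Log2 fold change of each regulator, idelalisib over control, with its 95% interval from the edgeR fit (n = 3 per group); filled points passed an adjusted p under 0.05. Cblb at -1.92, Ptpn22 at -0.94 and Ubash3b at -0.75 lie far left of 0, Dgka and Dgkz lie just left of it, and the interval of Rnf128 is the widest.

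Sequence upstream of the start sites is shown for Ptpn22 and Ubash3b, which were lower under every setting, and for Cbl, which was not called, since NFAT and EGR factors act downstream of the T cell receptor. RefSeq windows (build GRCm38.p6, 300 bases around each start site) matched 9 of the 10 genes, Itch being the exception, with 15 windows in all. The Cblb window lies inside an annotated exon of another Cblb transcript and is not printed. Capitals mark matches on either strand to GGAAA, the core bound by NFAT factors (TTTCC on the other strand), or to GCGNGGGCG, the EGR motif. The Ptpn22 and Ubash3b stretches end at the base before a RefSeq start site and lie within the deposited gene span, outside its annotated exons, and the Cbl stretch ends 4 bases before its start site. Each reads 5′ to 3′ on the gene's strand.
Ptpn22, chr3:103860027-103860276, plus strand: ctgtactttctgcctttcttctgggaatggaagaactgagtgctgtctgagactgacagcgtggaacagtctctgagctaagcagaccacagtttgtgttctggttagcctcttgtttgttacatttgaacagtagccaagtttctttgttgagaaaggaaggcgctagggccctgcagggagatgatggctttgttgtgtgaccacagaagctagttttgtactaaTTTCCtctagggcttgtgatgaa
Ubash3b, chr9:41158063-41158312, minus strand: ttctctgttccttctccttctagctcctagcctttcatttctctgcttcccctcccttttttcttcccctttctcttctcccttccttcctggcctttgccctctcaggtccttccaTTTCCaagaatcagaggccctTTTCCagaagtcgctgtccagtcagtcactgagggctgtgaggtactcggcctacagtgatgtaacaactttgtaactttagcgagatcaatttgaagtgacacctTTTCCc
Cbl, chr9:44234050-44234296, minus strand: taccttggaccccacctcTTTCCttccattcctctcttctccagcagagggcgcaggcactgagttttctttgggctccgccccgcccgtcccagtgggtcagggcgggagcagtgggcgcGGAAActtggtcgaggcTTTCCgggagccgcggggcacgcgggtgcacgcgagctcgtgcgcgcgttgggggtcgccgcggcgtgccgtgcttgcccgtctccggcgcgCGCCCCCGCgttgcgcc

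The printed stretch of Ptpn22 held 1 NFAT core, that of Ubash3b 3 and that of Cbl 3 with 1 EGR match. Only 1 start site per gene is printed. The window at the other start site held 0 NFAT cores for Ptpn22 and 1 for Ubash3b. Several genes had more than 1 window in the counts below, and some windows of Dgka overlapped. Of the 15 full windows of the regulators, 11 (73.3%) held an NFAT core, against 61.3% of all 32851 windows of that length, and 1 (6.67%) held the EGR motif, against 5.55%. Over the 250 bases upstream alone, 55.6% and 4.7% of all windows held them. None of the 15 windows held the FOXO motif GTAAACA (3.65% of all windows), the AP-1 motif TGANTCA (7.81%) or the interferon-stimulated response element (3.44%), and 1 held the E-box CACGTG (7.15%); both strands were searched. The base composition also differed, with 46% G or C in the Ptpn22 stretch, 48.4% in Ubash3b and 71.3% in Cbl. A match describes these letters and does not show binding.

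Per length, the regulators differed widely in level. Exonic length sums the bases of all annotated exons of a gene, and a single transcript can be much shorter. For Ptpn22 it was 6775 bases, while the longest annotated transcript held 2708 overlapping words of 50 bases. The order of the genes and their shares of the sum therefore rest on exonic length. The comparison of any 1 gene between the groups does not. In CPM per kilobase of exonic length, control cells had Ptpn6 at 81.8 ± 2.58, Cblb at 81.2 ± 1.43 and Dgka at 81.1 ± 1.43 (SD, n = 3), levels that did not differ beyond their spread. Dgkz followed at 55.2 ± 1.17, Ptpn22 at 39.0 ± 1.80 and Cbl at 26.1 ± 1.56. Ubash3b at 12.2 ± 0.748 and Itch at 11.3 ± 0.117 overlapped, Ubash3a was at 9.91 ± 0.940, and Rnf128 was last at 0.165 ± 0.0551. With idelalisib the order was different: Ptpn6 was at 84.4 ± 8.55, Dgka at 65.0 ± 4.55, Dgkz at 45.1 ± 5.79 and Cbl at 26.6 ± 4.22, with Cblb at 21.5 ± 1.98 and Ptpn22 at 20.4 ± 1.24 after them. The libraries of Cbl and Cblb overlapped, as did those of Cblb and Ptpn22. Itch at 10.6 ± 0.769 and Ubash3a at 10.48 ± 1.09 did not differ beyond their spread, and Ubash3b was below both at 7.25 ± 0.339. The sum over the 10 genes was 291.5 ± 13.8 CPM per kilobase with idelalisib and 397.9 ± 2.09 in control, of which Cblb made up 7.38% ± 0.818 with idelalisib and 20.4% ± 0.364 in control. The exonic length deposited for Ubash3a was 3328 bases, against 11239 in the GENCODE M21 annotation, so its level per length is uncertain for this reason too. With the annotated length it was at 3.10 ± 0.323 CPM per kilobase with idelalisib and 2.93 ± 0.278 in control, below Ubash3b in both groups.

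**Figure D3:**
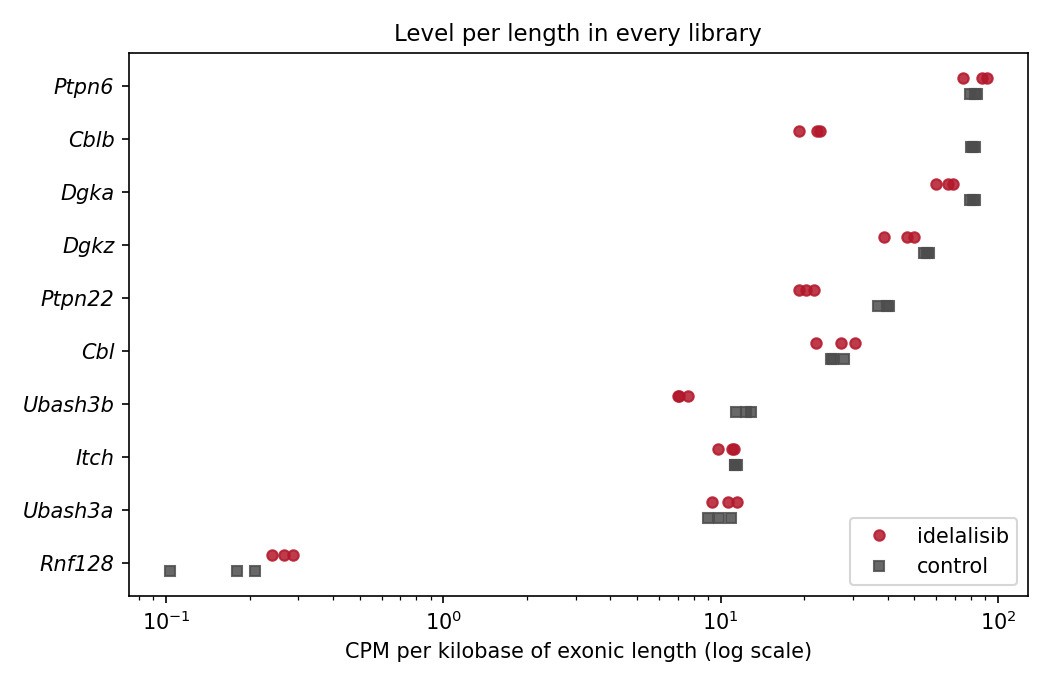
CPM per kilobase of exonic length on a log axis, 1 point per library, ordered by the control mean. Cblb shares the top of the scale with Ptpn6 and Dgka in control libraries and lies beside Cbl and Ptpn22 in idelalisib libraries, while Rnf128 stays below 0.3 in all 6.

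Ratios of related genes within a library do not depend on scaling. The Cblb to Cbl ratio of counts per kilobase was 0.844, 0.732 and 0.868 in the idelalisib libraries, against 3.19, 3.20 and 2.96 in the control libraries. By the deposited exonic lengths, Cblb was thus above Cbl in every control library and below it in every idelalisib library. Which gene had the higher level with idelalisib rests on those lengths, while the log2 difference between the groups does not. The mean log2 ratio was -0.30 ± 0.13 with idelalisib and 1.64 ± 0.06 in control (SD, n = 3), a difference of -1.94. The Ubash3a to Ubash3b ratio was 1.505, 1.22 and 1.63 with idelalisib and 0.865, 0.879 and 0.700 in control, by the deposited lengths. With the GENCODE M21 exonic length of Ubash3a, an alternative added after the data were seen, the ratio was 0.446, 0.361 and 0.483 with idelalisib and 0.256, 0.260 and 0.207 in control, so which of the genes had the higher level rests on that length, while the log2 difference between the groups was 0.83 with either. The Ptpn22 to Ptpn6 ratio was 0.233, 0.289 and 0.210 with idelalisib and 0.472, 0.449 and 0.511 in control. By contrast the Dgka to Dgkz ratio was 1.47, 1.55 and 1.33 with idelalisib and 1.44, 1.44 and 1.53 in control, a difference of -0.02 on the log2 scale and less than the spread between replicates. In the other 3 pairs the groups did not overlap, and the two-sided exact permutation p was 0.1 for each, the smallest that 3 against 3 libraries allow (0.133 after Benjamini-Hochberg adjustment over 4 pairs). For Dgka and Dgkz the exact permutation p was 0.9.

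**Figure D4:**
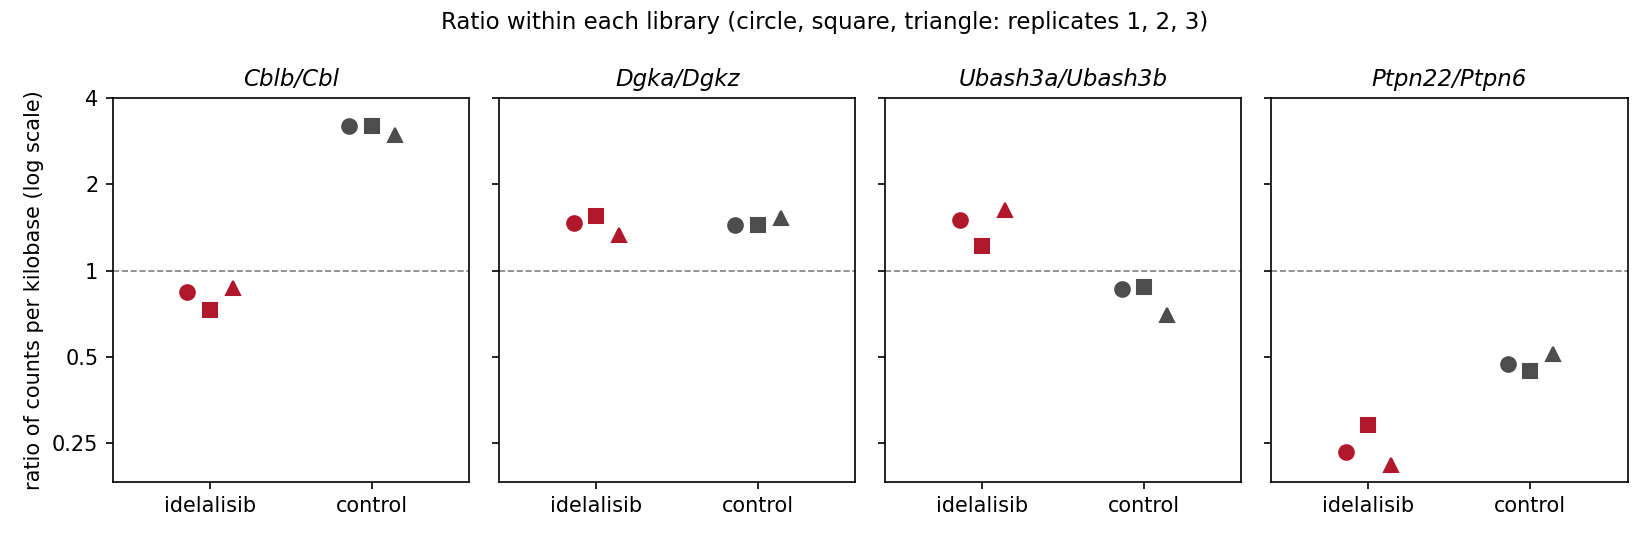
Ratio of counts per kilobase of 4 gene pairs in each library, on a log axis with the line at 1 marking equal levels. The Cblb to Cbl ratio lies below 1 in all idelalisib libraries and near 3 in all control libraries, and the Dgka to Dgkz ratio lies near 1.5 in both groups. All genes are drawn with their deposited lengths, on which the position relative to the line rests.

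The 3 idelalisib libraries also differed from each other. Cbl was higher in replicate 2 than in replicate 3 by 0.46 on the log2 scale, Cblb by 0.22, Rnf128 by 0.21, Ptpn22 by 0.18, Itch by 0.17 and Ubash3b by 0.12. The same difference was -0.37 for Dgkz, -0.30 for Ubash3a, -0.28 for Ptpn6 and -0.15 for Dgka. Over all genes tested, its median in 5 length classes was, with the shortest first, -0.05, -0.11, -0.04, 0.01 and 0.14. Cblb, Cbl, Itch and Ubash3b were in the longest class, and Ptpn22, Dgka and Dgkz in the class before it. Rnf128, Ubash3a and Ptpn6 were in shorter classes. Between the treatment groups, the median log2 fold change was, with the shortest class first, -0.10, 0.05, 0.07, 0.05 and -0.03. In the longest class 27.2% of genes were called lower and 22.1% higher, against 21.7% lower and 13.7% higher in the shortest. The part of length in the results above was not tested.

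In the ubiquitin ligase partners, a list of adaptors, deubiquitinases and other ligases, 3 of 14 tested genes were lower, 1 was higher and 10 were not called, with a median log2 fold change of -0.12. Over all genes tested the shares were 22.4% lower and 22.2% higher and the median 0.01, which are the values to set beside each list below. Sh3kbp1, an adaptor (CIN85) that binds Cbl proteins, fell to 205 ± 7.93 CPM with idelalisib, against 355 ± 3.87 CPM in control (a log2 difference of -0.79 with SE 0.07, adjusted p = 2.16e-06 by edgeR). Peli1, a ligase that limits T cell activation through NF-kappaB, fell by 0.47 and Nedd4l by 0.36 on the log2 scale. The call of Nedd4l was lost with library size alone, at -0.21, and without idelalisib replicate 1 or control replicate 1 or 3. Ndfip1, an activator of Itch that was named after its value was seen, stood 0.20 higher on the log2 scale (edgeR adjusted p = 0.0478), a call that 9 of 16 alternatives did not keep, among them those without idelalisib replicate 3 or any 1 control library. Nedd4 itself had a log2 fold change of 0.02 (edgeR adjusted p = 0.907).

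In the list of the diacylglycerol pathway, 9 of 17 tested genes were lower and 4 higher (median log2 difference -0.35). Of these 13 calls, 10 held under every alternative. Plcg1, the phospholipase that makes diacylglycerol in T cells, fell to 232 ± 10.6 CPM with idelalisib, against 393 ± 8.25 CPM in control (a log2 difference of -0.76 with SE 0.08, adjusted p = 3.45e-06 by edgeR). Rasgrp1, the Ras activator that diacylglycerol recruits, moved the other way, at 266 ± 21.2 CPM with idelalisib and 194 ± 15.3 CPM in control (log2 fold change 0.45, edgeR adjusted p = 0.000858). Among protein kinase C genes, Prkcd fell by 0.92, Prkch by 0.55 and Prkcq by 0.38 on the log2 scale, while Prkce and Prkca rose by 0.53 and 0.42.

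Within the diacylglycerol kinase family, Dgka and Dgkz included, 6 of 8 tested genes were lower and 1 was higher. Over all genes tested, 22.4% were lower and 22.2% higher. Scaled by library size alone, 3 of 8 were lower, Dgkd, Dgkg and Dgkh, where 2219 of all 14530 genes tested were lower. When 1 library was left out, 4 to 6 of the family were lower, and 2617 to 3581 of all genes tested. Dgkh, the eta isoform, had 129.6, 110.2 and 86.3 CPM with idelalisib, against 279, 298 and 292 CPM in control, with no overlap and a log2 difference of -1.41 with SE 0.12 (adjusted p = 1.62e-06 by edgeR). Dgkk, the kappa isoform, went against the others and rose to 271, 211 and 218 reads in the idelalisib libraries, against 18, 22 and 14 reads in the control libraries. Its log2 fold change was 3.66 with SE 0.22 (adjusted p = 3.67e-08 by edgeR). Per length it nevertheless stayed low, at 2.13 ± 0.339 CPM per kilobase with idelalisib and 0.167 ± 0.0326 in control, far below Dgka in either group. Dgkd and Dgke fell by 0.42 and 0.35 on the log2 scale, Dgkg had 14, 26 and 15 reads with idelalisib against 57, 44 and 37 in control (log2 fold change -1.33), and Dgkq did not pass, at 0.02. The call of Dgke was lost with library size alone, at -0.19, and without idelalisib replicate 1 or 3 or control replicate 1 or 3.

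In the list of other phosphatases and inhibitory adaptors of proximal signalling, 7 of 25 tested genes were lower and 3 higher, with a median of -0.08. Ptpn2, a tyrosine phosphatase that restrains Lck and cytokine signalling, fell to 122 ± 0.932 CPM with idelalisib, against 194 ± 6.33 CPM in control (a log2 difference of -0.66 with SE 0.07, adjusted p = 1.02e-05 by edgeR). The Ras adaptor gene Grap and the cytoskeletal adaptor gene Pstpip1 fell by 0.62 and 0.60 on the log2 scale. Csk, the partner kinase of the Ptpn22 product, had a log2 fold change of -0.14 (edgeR adjusted p = 0.205). The 3 higher genes, all of adaptors that restrain receptor signals and named after their values were seen, were Lax1, Sla2 and Pag1, at 0.57, 0.42 and 0.28. The count of higher genes was 1 without idelalisib replicate 1 or any 1 control library, and 5 without idelalisib replicate 2. Over all genes tested, 2472 to 2757 were higher in the former fits and 3599 in the latter.

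Of the genes whose products the regulators act on, 6 of 19 tested were higher and 5 lower (median -0.12). Of these 11 calls, 5 held under every alternative, those of Zap70, Lck, Plcg1, Rasgrp1 and Jun. The lists overlap: Plcg1, Rasgrp1 and Prkcq, all called, were also counted in the diacylglycerol pathway above. Zap70, the kinase that Ubash3b and Ptpn22 products dephosphorylate, fell to 280, 314 and 348 CPM in the idelalisib libraries, against 638, 591 and 695 CPM in the control libraries (a log2 difference of -1.03 with SE 0.09, adjusted p = 1.70e-06 by edgeR). Syk, its relative, was scarce at 7.42 ± 1.57 CPM with idelalisib and 4.37 ± 1.53 CPM in control, and its call at 0.77 (edgeR adjusted p = 0.0216) was not kept when control replicate 1 or 2 was left out. Syk is also abundant in B cells, whose markers were higher with idelalisib, and their part in this value was not tested. Lck fell by 0.40 on the log2 scale, and Jun, a target of Itch, rose by 0.72. The count of higher genes was 2 without control replicate 1 and 3 without control replicate 3. Of all genes tested, 2472 and 2486 were higher in these fits.

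Transcription factors linked to the unresponsive state in T cells held 5 higher and 3 lower of 11 tested genes (median 0.10). Egr2, which in mouse T cells is known to induce Cblb, had 32.2, 37.0 and 36.4 CPM with idelalisib, against 18.5, 16.6 and 19.2 CPM in control (a log2 difference of 0.96 with SE 0.11, adjusted p = 1.33e-05 by edgeR), in the opposite direction to Cblb. Egr3, the other factor with that role, did not pass, at 0.10 (edgeR adjusted p = 0.589). Egr1 rose to 157 ± 9.53 CPM with idelalisib, against 59.7 ± 3.37 CPM in control (log2 fold change 1.40), and Nr4a1 fell to 118 ± 18.5 CPM with idelalisib, against 239.7 ± 4.54 CPM in control (log2 fold change -1.02). Foxo1, whose product raises Dgka in resting T cells, had a log2 fold change of -0.33 (edgeR adjusted p = 0.00528), and was at -0.17 and not called when scaled by library size alone.

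**Figure D5:**
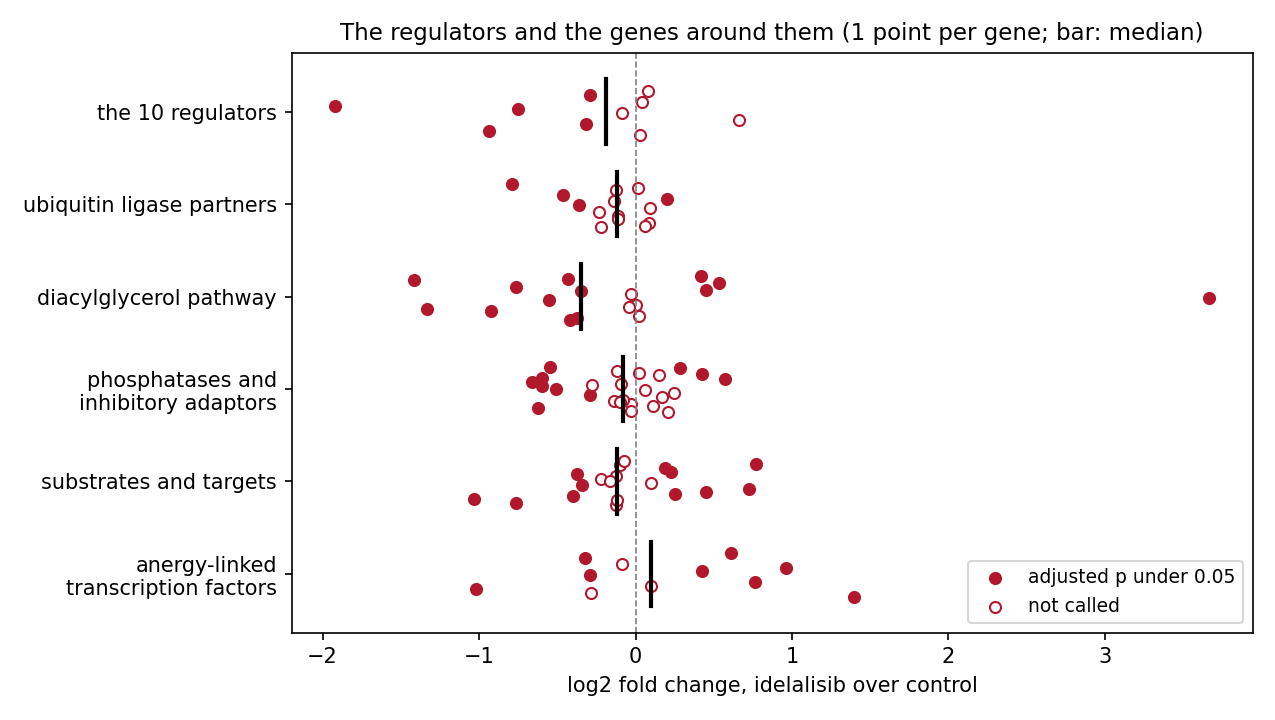
Log2 fold change, idelalisib over control, of the 10 regulators and of the tested genes of the 5 lists, 1 point per gene, filled where the adjusted p was under 0.05, with the median of each list as a bar. Filled points of the regulators lie left of 0 only, and the 1 point at 3.66 in the diacylglycerol pathway is Dgkk.

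By the Euclidean distance of log2(CPM + 1) over the 6 libraries, each gene centred on its own mean, the protein-coding genes most like Cblb among 11391 were Tnfaip3, M1ap and Fasl, at distances of 0.34, 0.34 and 0.36. Tnfaip3, the gene of the ubiquitin-editing enzyme A20, had 170.2, 179 and 160.1 CPM with idelalisib and 541, 526 and 555 CPM in control. M1ap had 9.94, 10.97 and 11.3 CPM with idelalisib and 38.9, 39.2 and 43.4 CPM in control. Fasl, the death receptor ligand, had 3.82, 5.52 and 3.94 CPM with idelalisib and 20.1, 21.1 and 19.5 CPM in control. The gene of the drug's target, Pik3cd, had a log2 fold change of -0.19 (edgeR adjusted p = 0.0820).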

How the data were processed

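Poly(A) RNA libraries of 6 cultures were analysed. The deposited values are raw read counts per gene, made by the authors with fastp, HISAT2 2.0.5 and featureCounts 1.5.0-p3 on mm10, per the submitters' processing notes. The deposited gene lengths, another kind of value, equal the summed exonic bases of GENCODE M21 for 9 of the 10 regulators, and their coordinates are identical there. The handling of strand and of reads that map to several places is not given in the sources used here. At most 6.73% of the 50-base words of a regulator's longest transcript occur in other genes.

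Genes were filtered with filterByExpr (minimum count 10, minimum total 15), scaled with TMM factors and fitted with edgeR 4.0.16 in R 4.3.3 (quasi-likelihood, robust, group alone). P-values were Benjamini-Hochberg adjusted over 14530 genes and called under 0.05. At 1 CPM a gene rests on 14.0 to 16.7 reads. Within a group, chi-square per degree of freedom was 4.63 to 18.2, so no library was a duplicate. The script was tested on simulated data. The regulators and lists were chosen with earlier results of these data known. Genes were named if they were regulators, among the 3 largest called changes of a list averaging at least 1 CPM, closest to Cblb in pattern, or Pik3cd. Other genes of the lists were named after their values were seen. No list was tested as a set.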

Additional observations from a re-analysis of the deposited data

How the results depend on the processing

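In 16 alternatives (3 other scalings, DESeq2 1.42.0, limma-voom 3.58.1, 2 other count filters, a stricter threshold of 0.01, 2 fits with a replicate block and 6 that left out 1 library) Cblb, Ptpn22 and Ubash3b were called lower each time, and Cbl, Itch, Ptpn6 and Ubash3a were called in none; nor was Rnf128 in the 15 where it was tested. Scaled by library size alone, with or without the replicate block, 3 regulators were called, all lower. Then 3 of 14 ubiquitin ligase partners (without the block) and 8 of 25 phosphatases and adaptors were higher and 1 transcription factor was lower. With the block 3 substrates were lower. Of the 14530 genes tested, 4832 were higher and 2219 lower without the block, against 4462 higher and 2064 lower with it. At an adjusted p under 0.01, 2138 genes were higher, with 0 ubiquitin ligase partners, 1 phosphatase or adaptor and 2 substrates among them. The count of higher ubiquitin ligase partners was also 0 with RLE scaling, DESeq2, the lowest count filter and the replicate block. Leaving out 1 library gave 4 to 5 regulators called and 0 to 1 higher ubiquitin ligase partners. It gave 1 to 5 higher phosphatases and adaptors and 2 to 6 higher substrates. Over all genes tested, these fits called 5103 to 7180 genes, 2472 to 3599 of them higher. The replicate block called 5961 genes and 5 regulators, and 1 phosphatase or adaptor higher. Same-numbered libraries did not deviate together (correlations 0.08, -0.13 and -0.10), and no label says that a number marks a shared mouse or day, so the replicates were not treated as pairs. Rnf128 rests on 5 to 14 reads a library, too few to detect a modest change.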
